A study of Homo sapiens with 59 samples.

Results

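HepG2, an established human liver cancer cell line, was treated for 24 h with a water extract of fresh ginger (Zingiberis Rhizoma Recens), and the 3 libraries from cells given 500 µg/mL are compared here with the 3 from cells given 100 µg/mL. These 6 libraries were chosen by their labels, High dose and Medium dose, out of 59 RNA-seq libraries of the series, and all 16641 genes that passed a filter on low counts, of 60675 in the table, were tested. The question was which responses to the extract were still growing between these doses, which had levelled off and which had turned back. The other groups used are fresh ginger at 20 µg/mL, a DMSO vehicle, and dried ginger (Zingiberis Rhizoma) at 100 and 500 µg/mL, with 3 libraries each, all in HepG2 for 24 h and all labelled as the same batch. Water extracts of Pinelliae Tuber, Scutellariae Radix and Zizyphi Fructus at 100 and 500 µg/mL are used only for the scale of the count. These also have 3 libraries per dose, 24 h and the same batch label, but other numbers in the sample titles than the gingers. The vehicle is given as 0.1% DMSO in the sample labels and as 2% in the series text, and the labels of the ginger groups name no DMSO. The vehicle also carries another number in the sample titles than both gingers, so every change against vehicle compares groups that may differ in more than the extract. The change from 100 to 500 µg/mL compares libraries of 1 title number, 1 extract and 1 labelled batch. Nothing in the labels says that replicates were separate cultures, so p-values measure the spread between these samples only. The series text gives the top dose as the lower of 500 µg/mL and the dose that killed a set share of the cells, and for fresh ginger it was 500 µg/mL.

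Library totals ran from 22585561 to 26639311 counts at 500 µg/mL and from 23767545 to 24627054 at 100 µg/mL, within the series' 21582593 to 31392071. Levels below are CPM, a gene's count scaled to the normalised total of its library, and they compare 1 gene across libraries, not genes with each other. The hepatocyte markers were present in all 6 libraries, with ALB at 8741 to 10170 CPM, AFP at 3106 to 4039 CPM and HNF4A at 269 to 307 CPM. Of the 7 markers checked, 6 were lower at 500 than at 100 µg/mL with no overlap, among them FGB (181 to 189 CPM, then 122 to 131 CPM) and TF (2551 to 2647 CPM, then 1945 to 2045 CPM). Over all tested genes, 19.9% were lower at 500 µg/mL with no overlap. Of 18 markers of other cell types, 5 had no count in these libraries (COL1A2, DCN, KDR, PTPRC and CD3E). Their summed level was 2399 to 2539 CPM at 100 µg/mL and 2745 to 2996 CPM at 500 µg/mL, nearly all of it LYZ and SOX9. Without those genes it was 137 to 146 and 134 to 142 CPM. In bulk libraries, fewer cells in a state and less RNA per cell cannot be told apart.

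Gene lists of 34 pathways and cell types are counted over their tested members. For scale, 13.7% of all tested genes rose from 100 to 500 µg/mL and 12.7% fell. A share of a list near these says little about that list. Most lists lost no or 1 member to the filter. The exceptions were matrix proteases (10 of 14 tested), acute phase and NF-kappaB targets (19 of 25), complement and coagulation factors (20 of 23), bile acid genes (12 of 15), PXR and CAR targets (10 of 13), the IGF axis (9 of 12), fatty acid oxidation (16 of 18) and markers of other cell types (11 of 18).

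Several stress and nutrient programmes are read out below, each with well-known targets. Growth factor signalling through the kinase ERK induces the immediate early genes and then DUSP and SPRY proteins that damp it, NRF2 switches on glutathione and quinone-detoxifying enzymes when it escapes KEAP1, and ATF4 answers amino acid shortage. HIF raises glycolytic enzymes when its prolyl hydroxylases are inactive, SREBP2 drives the enzymes of cholesterol synthesis when sterols are low, and MTF1 holds up the metallothioneins and the zinc exporter SLC30A1 when free zinc is high.

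Between 100 and 500 µg/mL, 2284 genes rose (13.7% of those tested) and 2120 fell (12.7%), 4404 in all (26.5%), by edgeR's quasi-likelihood test at an adjusted p under 0.05. Most changes were small. The median log2 change was 0.30 among genes that rose and -0.26 among those that fell, while 241 genes rose and 61 fell by at least 2-fold. Over all tested genes the median was 0.003. The 3 libraries at 500 µg/mL lay wholly above those at 100 µg/mL for 3421 genes (20.6%) and wholly below for 3305 (19.9%). Among genes with a symbol and at least 2 CPM, the least certain call was TP53BP1, at -0.15 with an adjusted p of 0.0499. The nearest of these genes past it was SEPSECS, at 0.18 with 0.05. The preceding dose step of the same 5-fold size, from 20 to 100 µg/mL, had 4116 genes called (24.7%), of which 106 rose and 104 fell by at least 2-fold. Against vehicle, 7654 genes (46%) were called at 500 µg/mL.

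Each gene was then placed by its response at 100 µg/mL against vehicle, where 2011 genes were higher (12.1%) and 1690 lower (10.2%). A response was called growing where the step to 500 µg/mL passed the test in the same direction, turned where it passed in the opposite direction, and levelled off where it did not pass and its 95% interval lay within 0.25 of 0 on the log2 scale. The rest stayed undecided. Of the genes higher at 100 µg/mL, 967 went on growing (48.1%), 594 had levelled off (29.5%), 120 had turned (5.97%) and 330 were undecided (16.4%). Of those lower at 100 µg/mL, 742 went on falling (43.9%), 512 had levelled off (30.3%), 72 had turned (4.26%) and 364 were undecided (21.5%). A further 2503 genes passed the test at the step without having passed it at 100 µg/mL, 1245 of them higher and 1258 lower.

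**Figure D1:**
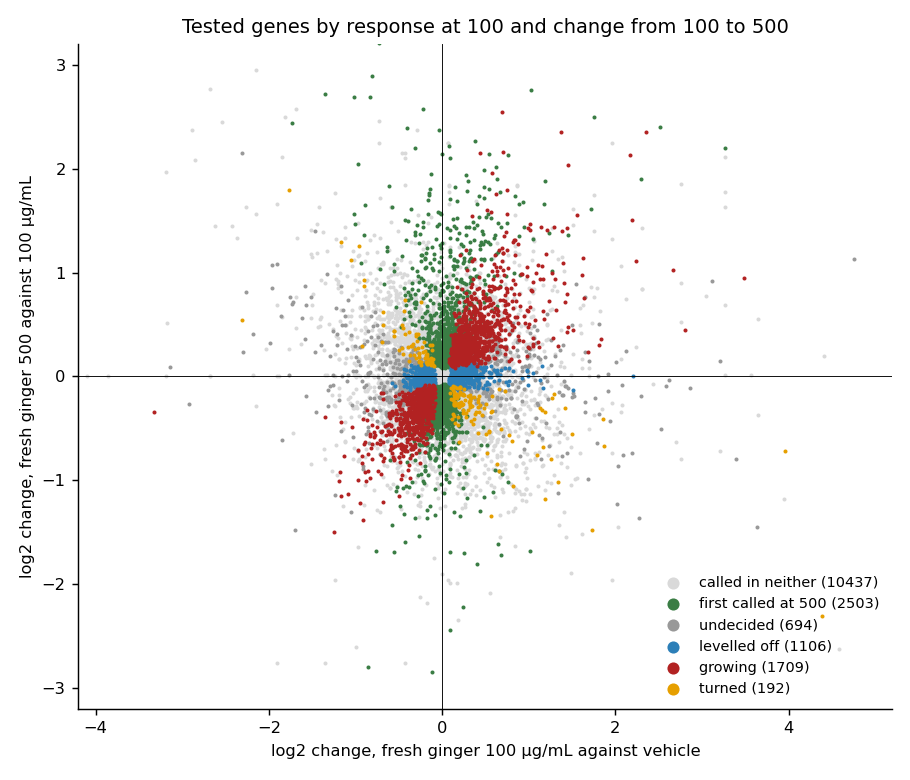
Each point is a tested gene, placed by its log2 change at 100 µg/mL against vehicle (horizontal) and from 100 to 500 µg/mL (vertical), and coloured by class, with 64 genes outside the axes. The 1709 growing genes fill the quadrants of equal sign, the 192 turned genes those of opposite sign, and the 1106 levelled genes a band about 0.

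The response at 100 µg/mL and the step from it share the 3 libraries at 100 µg/mL, so an error in those libraries moves both measures in opposite directions. The same classes were therefore counted with responses that use none of the 6 libraries. With the response taken from dried ginger at 100 µg/mL against vehicle (2914 genes called, 17.5%), 843 of the 1624 higher genes (9.76%) rose further under fresh ginger (51.9%), 487 were level (30%) and 104 fell (6.4%). Of its 1290 lower genes (7.75%), 623 fell further (48.3%), 337 were level (26.1%) and 57 rose (4.42%). The response at 20 µg/mL of fresh ginger against vehicle was smaller (849 genes, 5.1%). Of 458 genes higher at 20 µg/mL (2.75%), 68 rose from 100 to 500 µg/mL (14.8%), near the 13.7% of all tested genes, 161 were level (35.2%) and 87 fell (19%). Of 391 genes lower there (2.35%), 77 fell (19.7%), 201 were level (51.4%) and 86 rose (22%). The shares that fell, 19% and 19.7%, were above the 12.7% of all tested genes, and the 22% that rose was above the 13.7%.

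The 15 genes with the largest rise among those of at least 2 CPM were MMP3, ZACN, IGFBP3, FOSB, DUSP5, SEL1L3, FOS, AQP3, EMP1, PAQR5, CYP1A1, AMPD3, TFPI2, LOXL2 and IL11, with log2 changes from 2.54 down to 1.79. MMP3 (ENSG00000149968, chromosome 11, 102835801 to 102843803, minus strand, GRCh38), a secreted protease that cuts extracellular matrix, was at 1.8, 2.53 and 1.72 CPM at 100 µg/mL and at 10.8, 11.5 and 13 CPM at 500 µg/mL. Its groups were far apart, and it was at 1.12 to 1.33 CPM in vehicle. It rose 5.84-fold (log2 2.54, SE 0.12, adjusted p = 1.19e-22). ZACN, a ligand-gated ion channel gene, differed from the others of this group in its spread, with 4.29, 16.4 and 9.74 CPM at 500 µg/mL and an SE of 0.74. Its vehicle libraries were at 4.74 to 8.39 CPM, so 1 library at 500 µg/mL lay below them and the others above. It was not called without replicate 2 of either dose (1.93 to 2.17).

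Immediate early genes as a group went on growing. Of 16 tested, 15 rose and none fell, with a median log2 change of 0.81. At 100 µg/mL 12 of them were already higher than vehicle, and all 12 grew. FOS (ENSG00000170345, chromosome 14, 75278774 to 75282230, plus strand), a subunit of the transcription factor AP-1, was at 2.74, 2.69 and 3.18 CPM at 100 µg/mL and at 13.6, 12.5 and 11.8 CPM at 500 µg/mL. The 2 groups were far apart in all libraries. The change was 2.13 (SE 0.15, adjusted p = 3.24e-16), after 2.17 (SE 0.25) from vehicle to 100 µg/mL. EGR1, a zinc finger factor induced through ERK, went from 32.4, 28.3 and 26.2 CPM to 79.3, 78.2 and 78.1 CPM, a change of 1.44 (SE 0.06, adjusted p = 2.4e-25). Its groups did not overlap either. EGR2 and EGR3, its relatives, first passed the test at this step, with 1.31 and 1.74, EGR2 in only 2 of the 6 fits that left out 1 library. MYC was the member that did not pass, at 0.09.

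Among 10 genes of ERK feedback, 5 rose and 1 fell. DUSP5 (ENSG00000138166, chromosome 10, 110497838 to 110511544, plus strand), a nuclear phosphatase that inactivates ERK, stood at 5.68, 4.93 and 5.82 CPM at 100 µg/mL and at 25.6, 23.5 and 24 CPM at 500 µg/mL. Nearly all of its response lay in this step. It rose by 2.15 on the log2 scale (SE 0.08, adjusted p = 5.35e-26), against 0.43 (SE 0.11) at 100 µg/mL, and the step exceeded the preceding step from 20 to 100 µg/mL by 1.63 (SE 0.17, adjusted p = 8.39e-10). SPRY4, DUSP6 and SPRY2, inhibitors of the same cascade, rose by 0.64, 0.48 and 0.29, while the ETS factor ETV4 fell by 0.12. Of 10 matrix protease and plasminogen genes, 7 rose and none fell (median 0.92). PLAU, the urokinase that activates plasminogen, was level across vehicle, 20 and 100 µg/mL, with means of 2.92, 2.9 and 3.02 CPM, and reached 8.49, 7.83 and 8.13 CPM at 500 µg/mL. The groups at 100 and 500 µg/mL did not overlap. That rise of 1.43 (SE 0.10, adjusted p = 9.44e-16) came with no call at 100 µg/mL.

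NRF2 targets rose almost without exception. Of 24 tested, 23 rose and none fell, with a median of 0.39. Only 10 of them had been higher at 100 µg/mL, with 3 lower, and 11 first passed the test at 500 µg/mL. For 14 members the step was larger than the step from 20 to 100 µg/mL, and for none smaller, against 2.49% and 4.61% of all tested genes (7.1% in either direction). AKR1B10 (ENSG00000198074, chromosome 7, 134527592 to 134541408, plus strand), an aldo-keto reductase of reactive aldehydes, was at 188, 162 and 169 CPM at 100 µg/mL and at 416, 431 and 441 CPM at 500 µg/mL. The groups were separated by more than the whole level in vehicle, 97 to 98 CPM. The change was 1.31 (SE 0.06, adjusted p = 1.24e-23). SLC7A11, the cystine importer that feeds glutathione synthesis, rose by 1.3 (SE 0.07), from 91 to 98.6 CPM up to 222 to 241 CPM. GCLM, the modifier subunit of the rate-limiting enzyme of glutathione synthesis, was at 71.5, 64.2 and 70.2 CPM and then at 118, 115 and 124 CPM. Its 2 groups did not overlap, and it rose by 0.80 (SE 0.05, adjusted p = 1.82e-18). NQO1, a quinone reductase, rose by 0.50 (SE 0.05) without having passed at 100 µg/mL. HMOX1, which breaks down haem, and EPHX1, an epoxide hydrolase, had turned: both were lower than vehicle at 100 µg/mL (-0.21 and -0.32) and rose to 500 µg/mL by 0.33 and 0.26. AKR1C1, AKR1C2 and AKR1C3 rose by 0.87, 0.49 and 0.35, and since they are near-identical copies whose reads can be split between them, the value of each is uncertain.

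The promoter of GCLM is shown as an example of this group, from RefSeq (GRCh38.p14), chr1:93909431-93909680 on the minus strand, the 250 bases before its start. Capitals mark the match to TGACNNNGC, the core of the antioxidant response element, searched on both strands.
GCLM: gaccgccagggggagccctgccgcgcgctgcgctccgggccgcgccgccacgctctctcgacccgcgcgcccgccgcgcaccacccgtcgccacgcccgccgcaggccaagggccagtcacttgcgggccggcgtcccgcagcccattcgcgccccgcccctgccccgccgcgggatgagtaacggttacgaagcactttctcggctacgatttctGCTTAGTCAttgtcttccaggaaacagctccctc
This core occurred in the same window of 10.9% of 35116 RefSeq promoters and of 4 of the 17 NRF2 targets that the promoter table holds. The promoters were counted singly, whereas a target counted with a match at any of its starts, so these shares are not alike.

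The ATF4 amino acid response moved in part. Of 25 members, 14 rose and 2 fell (median 0.25), and 11 were growing while 5 had levelled off. GDF15, a secreted stress hormone, was at 134 to 151 CPM in vehicle, at 416, 435 and 438 CPM at 100 µg/mL and at 814, 859 and 866 CPM at 500 µg/mL. It rose 1.97-fold with no overlap (log2 0.98, SE 0.05, adjusted p = 3.55e-20). ASNS, which makes asparagine, rose by 0.75 (SE 0.05) and the lipoprotein receptor VLDLR by 0.69. The serine synthesis enzymes PSAT1 and PHGDH had levelled off at 0.00 and -0.03, and PSPH of the same pathway fell by 0.14, a call lost in 5 of 6 such fits (-0.15 to -0.10). DDIT3, the CHOP factor of prolonged stress, rose by 0.27 (SE 0.10, adjusted p = 0.0313) and lost the call in 4 of them (0.21 to 0.27). Of the 19 chaperones and unfolded protein response genes of the endoplasmic reticulum, 3 rose and 7 fell (median 0.00), with HSPA5 at -0.16. The share that rose was near the 13.7% of all tested genes. Of 18 heat shock genes, 1 rose and 6 fell (median -0.05).

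Of 8 aquaporin and osmolyte genes, 6 rose and 1 fell (median 0.44). AQP3, a channel for water and glycerol, was at 3.65 to 4.24 CPM in vehicle, 10.7, 10.2 and 12 CPM at 100 µg/mL and 43.1, 46.6 and 45 CPM at 500 µg/mL. Its step of 2.04 (SE 0.07, adjusted p = 3.61e-27) exceeded the step from 20 to 100 µg/mL by 0.68 (SE 0.16). SLC5A3, the sodium-coupled importer of myo-inositol, rose by 1.54 (SE 0.07), but it lies inside the MRPS6 gene, so reads may have been shared with it. Of 7 targets of the aryl hydrocarbon receptor, 2 rose and 5 did not pass, where 13.7% of all tested genes rose. With so few members the share is not read further. CYP1A1, the classic target and a monooxygenase of aromatic hydrocarbons, was at 20.2, 16.2 and 18.7 CPM and then at 71.4, 71 and 71.7 CPM, a rise of 1.96 (SE 0.09, adjusted p = 1.47e-23). UGT1A6, the other one, shares exons with its neighbours, was called in only 2 of 6 fits that left out 1 library, and is uncertain. AHRR and TIPARP, also targets of the receptor, did not pass, at 0.17 and 0.04.

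Genes of cholesterol, fatty acid and triglyceride synthesis mostly fell. Of 25 cholesterol synthesis and uptake genes, 22 fell and 1 rose (median -0.37), and at 100 µg/mL 21 were already lower than vehicle. For none did the step differ from the step before it by the test of that difference. SQLE, the epoxidase of squalene (ENSG00000104549, GRCh38), was at 375 to 391 CPM in vehicle, 264, 266 and 259 CPM at 100 µg/mL and 205, 188 and 198 CPM at 500 µg/mL. Each of these groups lay wholly below the one before. The step was -0.42 (SE 0.03, adjusted p = 1.38e-14) after -0.54 (SE 0.03) from vehicle. TM7SF2, a sterol reductase, fell by 0.54, HMGCS1, an early synthase of the pathway, by 0.46 and LSS, which closes the sterol rings, by 0.42. Of 16 fatty acid and triglyceride synthesis genes, 11 fell and 1 rose (median -0.23), with DGAT1 and DGAT2, which close triglyceride synthesis, both at -0.51 and GPAM, which opens it, at -0.47. PLIN2, the coat protein of lipid droplets, rose by 0.99 (SE 0.05), from 227 to 238 CPM up to 445 to 475 CPM. Of the 16 fatty acid oxidation and PPAR alpha targets that hold it, 5 rose, 2 fell and 9 did not pass (median -0.06). The share that fell was near the 12.7% of all tested genes. VNN1, a pantetheinase, rose by 1.76 and CPT1A, the gate of mitochondrial fatty acid import, by 0.53.

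**Figure D2:**
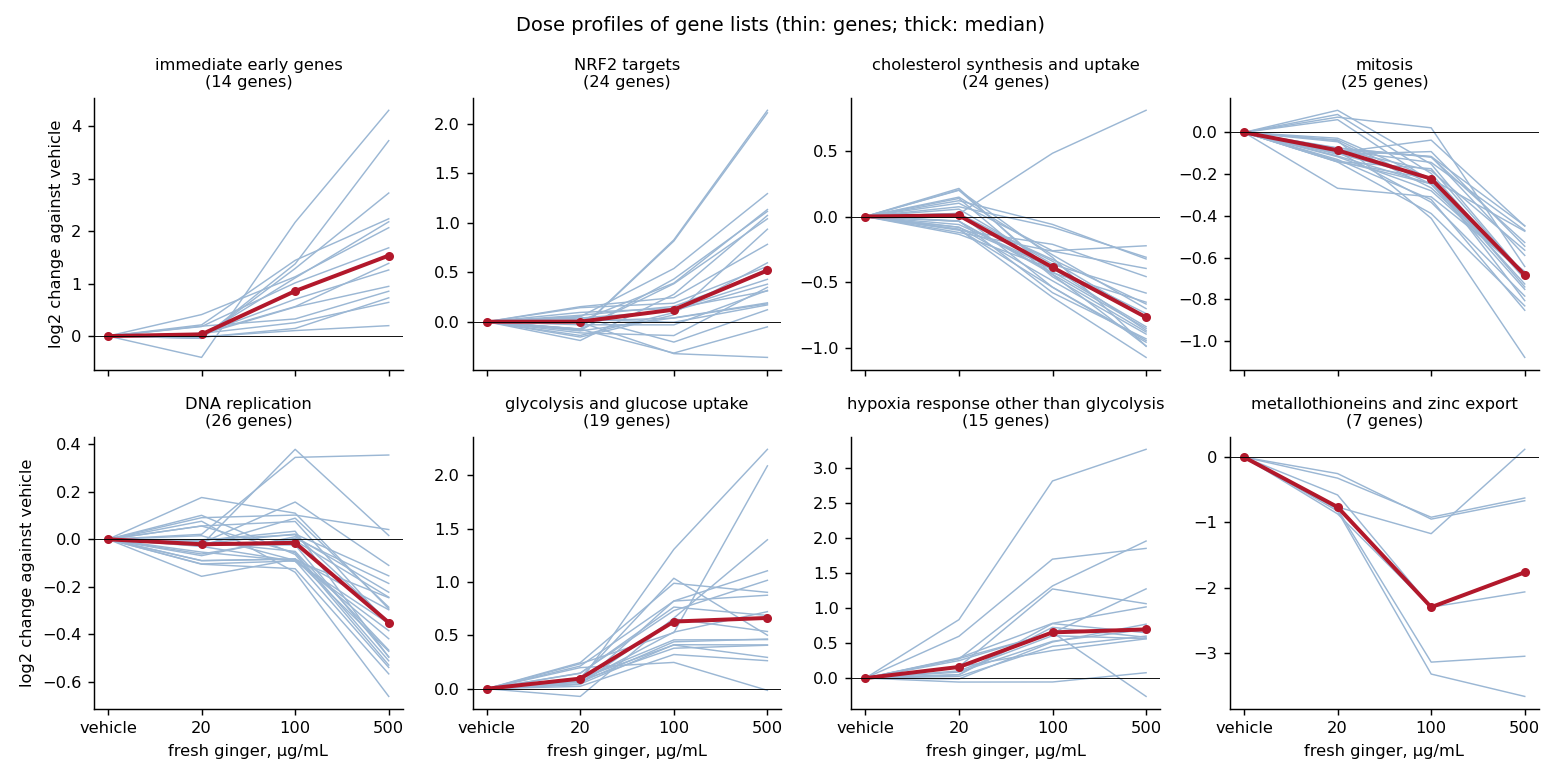
Each panel follows 1 gene list across vehicle and 20, 100 and 500 µg/mL of fresh ginger, with the log2 change against vehicle on the vertical axis, thin lines for genes of at least 2 CPM in some group and a thick line for their median. Immediate early and NRF2 medians still climb and cholesterol and mitosis medians still drop between 100 and 500 µg/mL, while the glycolysis and hypoxia medians are flat there and the metallothionein median turns up.

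Cell cycle genes fell at this step. All 25 mitosis genes fell (median -0.45), and 19 of them were already lower at 100 µg/mL. Of 26 DNA replication genes 24 fell and none rose (median -0.36), while at 100 µg/mL 1 was lower and 2 were higher than vehicle, so 21 of the 24 first passed the test here. For 19 of the 26 the step was lower than the step from 20 to 100 µg/mL. MCM2, a subunit of the replicative helicase, was at 179 to 181 CPM in vehicle, 162, 160 and 168 CPM at 100 µg/mL and 113, 115 and 113 CPM at 500 µg/mL. It fell by 0.52 on the log2 scale (SE 0.03, adjusted p = 1.11e-18). RRM2, a ribonucleotide reductase subunit, had turned: it rose to 434, 432 and 426 CPM at 100 µg/mL from 319 to 341 CPM in vehicle, and stood at 334, 329 and 342 CPM at 500 µg/mL, near the vehicle level. Its step was -0.36 (SE 0.03, adjusted p = 2.36e-13). Among mitosis genes KIF20A, a motor of cytokinesis, fell by 0.67 (SE 0.04) from 58.1 to 60.1 CPM down to 35.9 to 38.3 CPM. AURKB, the kinase of the chromosomal passenger complex, fell as much (-0.67, SE 0.04) but had been at 0.02 at 100 µg/mL. The cyclin E gene CCNE2 and the factor E2F1 did not pass, at 0.01 and -0.06.

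Genes that p53 can induce rose in the same libraries. Of 22 targets 14 rose and none fell (median 0.17), and 9 of the 14 first passed at 500 µg/mL. CDKN1A, the inhibitor of cyclin-dependent kinases, was at 160, 137 and 147 CPM and then at 221, 207 and 217 CPM, with no overlap (0.54, SE 0.05, adjusted p = 1.79e-12). PLK3 rose by 0.70, BBC3, a pro-apoptotic BH3 protein, by 0.55 and MDM2, which degrades p53, by 0.19. BAX and DDB2, targets as well, did not pass, at -0.07 and -0.10. Of 24 autophagy and lysosome genes 15 rose and 1 fell (median 0.18). SQSTM1, the autophagy cargo receptor, rose by 0.86 (SE 0.04, adjusted p = 3.15e-23), from 358, 361 and 384 CPM to 646, 674 and 683 CPM. GABARAPL1, an autophagosome protein, rose by 0.60, the protease CTSL by 0.59 and its relative CTSB by 0.47.

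**Figure D3:**
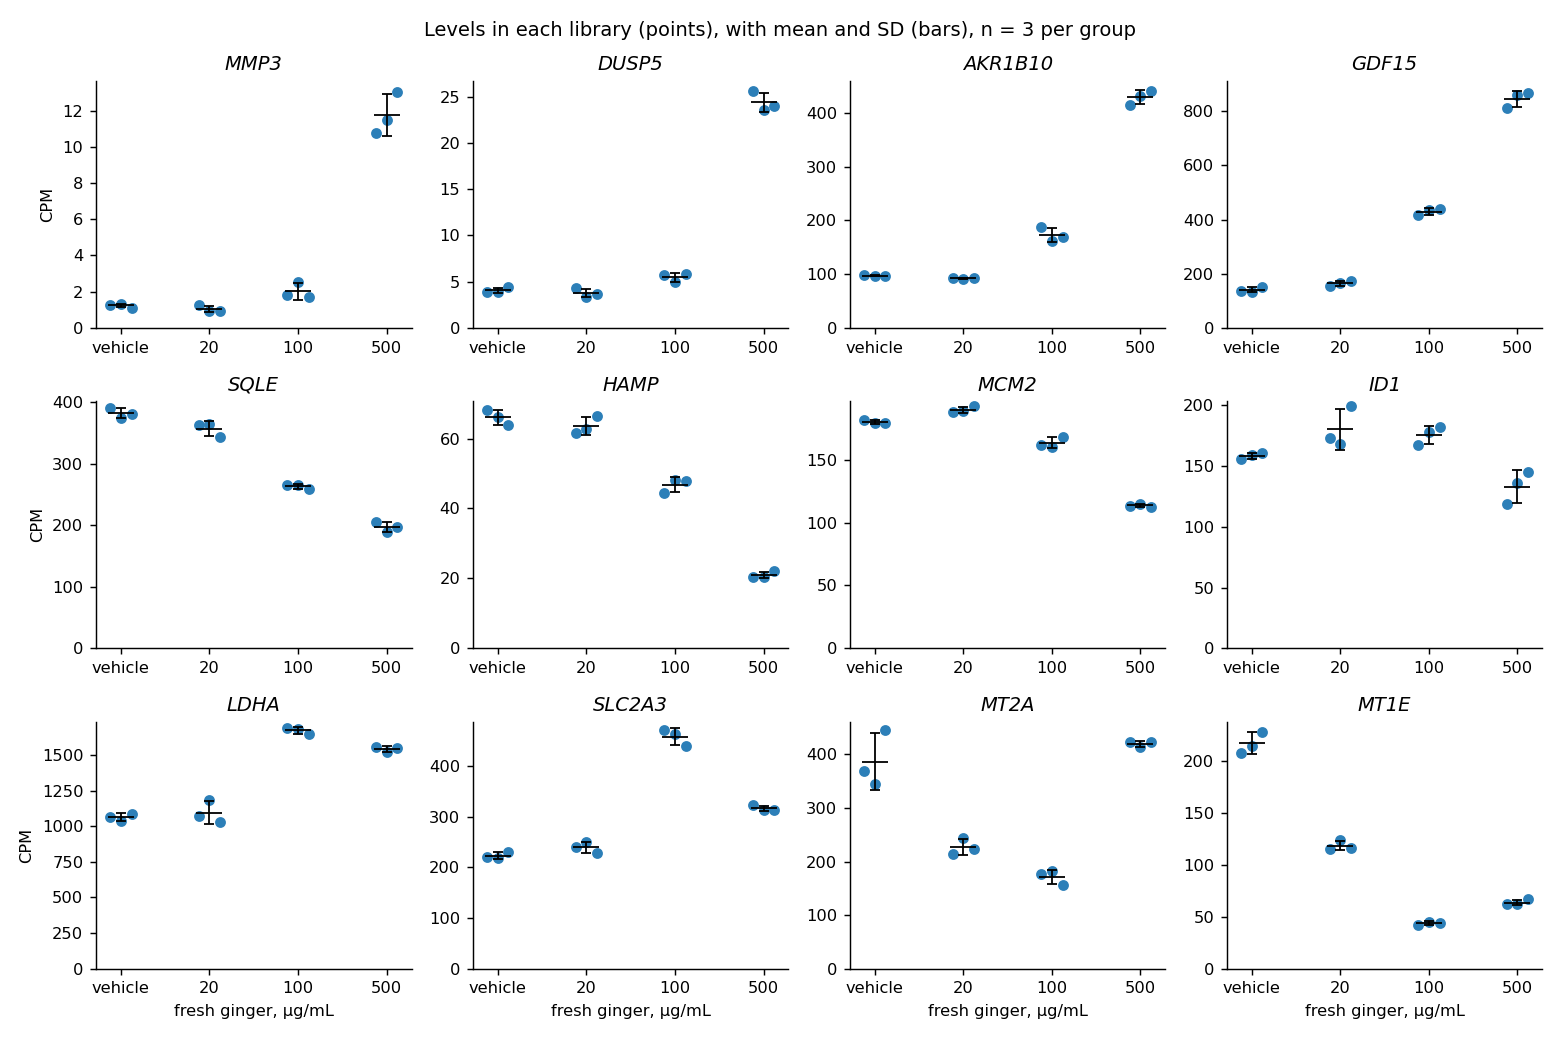
CPM in each library (points) with the mean and SD of the 3 libraries (bars) for 12 genes at each dose of fresh ginger and in vehicle, on axes that start at 0. MMP3 and DUSP5 rise almost wholly between 100 and 500 µg/mL, HAMP and ID1 fall there, SLC2A3 comes down from its level at 100 µg/mL, and MT2A comes up from its lowest level there.

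More hepatocyte genes fell than rose at this step. The 15 largest falls among genes of at least 2 CPM were ALDH8A1, RHBDL2, HAMP, ACSM2A, ACSM2B, ACSL3P1, AKR1D1, KANK4, SLC5A9, DGKK, UPK3A, KISS1R, CYP8B1, KNG1 and MAB21L4, with log2 changes from -1.22 to -0.92. ACSM2A and ACSM2B are near-identical copies and uncertain. HAMP (ENSG00000105697, chromosome 19, 35280716 to 35285143, plus strand), the hormone hepcidin that closes the iron exporter, was at 63.9 to 68.2 CPM in vehicle, 44.4, 48 and 48 CPM at 100 µg/mL and 20.5, 20.4 and 22 CPM at 500 µg/mL. It was 2.23-fold lower at the higher dose (log2 -1.16, SE 0.07, adjusted p = 1.09e-17). Of the 13 genes of hepcidin control, BMP-SMAD signalling and iron, 8 fell and 1 rose (median -0.36), 7 of them for the first time. ID1, ID2 and ID3, direct targets of BMP signalling that block bHLH factors, had not passed at 100 µg/mL and fell by 0.40, 0.42 and 0.39. ID2 was at 150, 162 and 155 CPM and then at 117, 116 and 116 CPM. SMAD6, an inhibitor that BMP signalling induces, fell by 0.36, whereas SMAD7, of the same kind, was at 0.03 and did not pass. TMPRSS6, the protease that restrains hepcidin, fell by 0.71 (SE 0.15), and SLC40A1, the iron exporter ferroportin, rose by 0.47 (SE 0.04, adjusted p = 9.83e-13). TFRC, the transferrin receptor, had levelled off at 675 to 690 CPM and 694 to 709 CPM, with an interval of -0.03 to 0.11.

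Of 22 hepatocyte secreted proteins 14 fell and 1 rose (median -0.28), and of 20 complement and coagulation factors 12 fell and none rose (median -0.24). FGA, a fibrinogen chain, was at 962 to 1021 CPM in vehicle, 534, 549 and 526 CPM at 100 µg/mL and 354, 347 and 339 CPM at 500 µg/mL. It fell by 0.63 (SE 0.04, adjusted p = 1.19e-19) after -0.89 at 100 µg/mL, and none of these groups overlapped. C8A, a chain of the complement attack complex, fell by 0.83 and APOC3, an apolipoprotein that slows triglyceride clearance, by 0.65. ALB fell by 0.16 (SE 0.06, adjusted p = 0.023), a call lost in 3 of 6 fits that left out 1 library. TF, the iron carrier transferrin, had turned, from 2551 to 2647 CPM at 100 µg/mL down to 1945 to 2045 CPM (-0.39, SE 0.04), below its vehicle level of 2241 to 2399 CPM. Of 16 hepatocyte transcription factors 6 fell and 2 rose (median -0.06). NR1H4, the bile acid receptor FXR, was at 33.1, 35.5 and 34.8 CPM and then at 20.4, 19.5 and 20.9 CPM, from 72.9 to 79.5 CPM in vehicle (-0.77, SE 0.06, adjusted p = 3.43e-15). CEBPA fell by 0.66 and ONECUT1 by 0.81, and HNF4A by 0.17. Of 12 bile acid genes 2 fell, a share near the 12.7% of all tested genes: the steroid reductase AKR1D1 by 0.99 and the sterol hydroxylase CYP8B1 by 0.93.

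Glycolysis genes had mostly levelled off by 100 µg/mL. All 19 genes passed the filter, 18 were higher than vehicle at 100 µg/mL and none lower. Of these 18, 10 had levelled off, 5 grew and 3 had turned by 500 µg/mL. The step counted 6 higher and 3 lower with a median of 0.03, while the step from 20 to 100 µg/mL had 17 higher. For 16 of the 19 the later step was lower than the earlier one by the test of the difference. ENO1 (ENSG00000074800, chromosome 1, 8861000 to 8879250, minus strand), the enolase, was at 1387 to 1401 CPM in vehicle, 1896, 1942 and 1916 CPM at 100 µg/mL and 1880, 1944 and 1941 CPM at 500 µg/mL. The groups at 100 and 500 µg/mL overlapped, with a change of 0.00 and a 95% interval of -0.06 to 0.07. PGK1, the first ATP-yielding kinase of the pathway, was likewise at 379 to 392 CPM and 387 to 403 CPM (interval -0.05 to 0.10). GAPDH, the dehydrogenase before it, did the same, with an interval of -0.08 to 0.07. LDHA, which reduces pyruvate to lactate, came down from 1689, 1684 and 1643 CPM to 1554, 1518 and 1549 CPM, a step of -0.12 (SE 0.04, adjusted p = 0.0129) after a rise of 0.66. It did not pass without replicate 2 at 500 µg/mL (-0.11). SLC2A3, a glucose transporter, fell further: 471, 463 and 440 CPM became 322, 313 and 313 CPM, above the 218 to 231 CPM of vehicle (-0.53, SE 0.04, adjusted p = 1.18e-17). Some members went on up. PFKFB3, the kinase whose product activates phosphofructokinase, rose by 0.94 (SE 0.08), PFKP by 0.73, the main glucose transporter SLC2A1 by 0.28, and HK1, which passed only here, by 1.56.

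The other hypoxia targets were mixed. Of 16, 15 were higher at 100 µg/mL, and at the step 7 rose, 3 fell and the median was 0.16. EPO, the red cell hormone that HIF induces in liver, was at 8.18, 8.54 and 7.74 CPM at 100 µg/mL and at 4.11, 4.34 and 4.51 CPM at 500 µg/mL. That put it below its vehicle libraries of 4.65 to 5.66 CPM, with a step of -0.91 (SE 0.10, adjusted p = 4.62e-10). PDK1, a kinase that inhibits pyruvate dehydrogenase, fell by 0.21 (SE 0.07, adjusted p = 0.0128) and P4HA1, a collagen prolyl hydroxylase, by 0.14. Each lost its call in 2 of 6 fits that left out 1 library, among them the fit without replicate 2 at 100 µg/mL. NDRG1 rose by 0.64 (SE 0.06), ADM, a vasodilator peptide, by 0.63 and CA9, a carbonic anhydrase, by 0.45, which was lost in 5 of 6 such fits (0.41 to 0.47). BNIP3, a mitophagy receptor, had levelled off, at 127 to 138 CPM and 123 to 132 CPM.

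The promoters of LDHA and PGK1 are shown for the glycolytic genes, from RefSeq (GRCh38.p14), each the 250 bases before a start: chr11:18394313-18394562 (plus strand, 1 of 2 starts listed) and chrX:78103998-78104247 (plus strand). Capitals mark ACGTG on either strand, the core of the hypoxia response element, and where both strands match at 1 place the matches overlap.
LDHA: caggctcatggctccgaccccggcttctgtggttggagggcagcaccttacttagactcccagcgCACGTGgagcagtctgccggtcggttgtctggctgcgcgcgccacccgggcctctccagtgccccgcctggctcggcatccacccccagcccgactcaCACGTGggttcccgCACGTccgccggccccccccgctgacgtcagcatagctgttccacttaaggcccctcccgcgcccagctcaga
PGK1: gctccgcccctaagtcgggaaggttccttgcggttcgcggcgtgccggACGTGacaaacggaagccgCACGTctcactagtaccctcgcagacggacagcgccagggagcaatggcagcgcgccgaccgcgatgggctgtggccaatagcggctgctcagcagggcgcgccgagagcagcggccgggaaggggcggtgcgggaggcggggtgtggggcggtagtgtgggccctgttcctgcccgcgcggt
LDHA had 5 matches at the start shown, which was taken because it had the most, and 0 at its other listed start. PGK1 had 2. The core occurred in 18.5% of the 35116 promoters and in a promoter of 11 of the 18 glycolysis genes in the table. These shares are not alike, since promoters were counted singly and a glycolysis gene counted with a match at any of its starts.

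Levelled responses outside these lists included large ones. The 6 largest increases at 100 µg/mL among them were CHST15, CP, RAB42, APOL2, ZC3H12D and SLC16A6, and the 6 largest decreases DHRS4L2, ANKMY2, OPN3, PARP9, CDC42EP4 and the noncoding RNA PURPL. CHST15, a sulfotransferase of chondroitin sulfate, went from 7.83 to 10.1 CPM in vehicle to 39, 41 and 39.4 CPM at 100 µg/mL and stayed at 41, 39.9 and 39 CPM. Its step was 0.01 with an interval of -0.14 to 0.14. CP, the copper carrier ceruloplasmin, was at 195, 205 and 187 CPM and then at 182, 181 and 176 CPM, lower in all 3 libraries by 0.13 but past no test (interval -0.23 to -0.02, adjusted p = 0.0693). It passed without replicate 3 at 100 µg/mL (-0.16) and with only the compared groups in the fit (-0.13). SLC16A6, a carrier of the monocarboxylate transporter family, had an interval of -0.07 to 0.13 after a rise of 1.05. CDC42EP4, an effector of the GTPase CDC42, was at 53.7 to 54 CPM and then at 48.3 to 53.2 CPM, lower in all 3 libraries with no pass of the test (-0.09, SE 0.04, adjusted p = 0.124), and it passed without replicate 2 at 500 µg/mL (-0.13). IGFBP1, a secreted binder of IGF, slowed without levelling: it rose from 37 to 44.8 CPM in vehicle to 431, 471 and 435 CPM and then to 818, 907 and 860 CPM. Its step was 0.95 (SE 0.08, adjusted p = 3.19e-14), and its difference from the step before was -1.78.

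Of the metallothioneins and the zinc exporter, 3 had turned by 500 µg/mL, 1 went on falling and none met the rule for having levelled off. All 8 tested genes of the list had been lower than vehicle at 100 µg/mL, with a median of -2.30, and 7 of them already at 20 µg/mL. From 100 to 500 µg/mL the other 4 were undecided, and the median was 0.26. MT2A (ENSG00000125148, chromosome 16, 56608199 to 56609497, plus strand), a small cysteine-rich protein that binds zinc, was at 368, 344 and 446 CPM in vehicle and at 176, 182 and 156 CPM at 100 µg/mL, and at 422, 413 and 423 CPM at 500 µg/mL it was back within the vehicle range. The rise of 1.29 (SE 0.13, adjusted p = 1.92e-11) took the 3 libraries wholly above those at 100 µg/mL. MT1E returned only in part: from 208 to 229 CPM in vehicle it fell to 41.9, 45.4 and 44.5 CPM and rose to 62.5, 62.3 and 66.9 CPM (0.54, SE 0.11, adjusted p = 8.3e-05). SLC30A1, which moves zinc out of the cell, was at 67.5, 67.5 and 68.8 CPM and then at 84.4, 81.8 and 83.6 CPM, still below the 126 to 130 CPM of vehicle (0.29, SE 0.04, adjusted p = 2.1e-07). MT1F alone went on falling, from 5.23 to 5.8 CPM to 3.94 to 4.78 CPM (-0.34, SE 0.13, adjusted p = 0.0466), a call lost in 5 of 6 fits that left out 1 library. MT1G and MT1X did not pass, with intervals of -0.33 to 0.50 and -0.09 to 0.56. The members are closely related in sequence, so reads may be divided between them with error. Of 8 zinc importers, 1 rose, SLC39A10 at 0.37, and 2 fell, SLC39A5 at -0.44 and SLC39A14 at -0.09, the last lost in 3 of 6 such fits. Over all tested genes 13.7% rose and 12.7% fell, and with so few importers their shares are not read further.

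The promoters of MT2A, MT1X and SLC30A1 are shown because only these 3 of the 8 tested list members are in the RefSeq table (GRCh38.p14). MT2A and SLC30A1 had turned, and MT1X was undecided. In that order they lie at chr16:56608334-56608583 (plus strand), chr16:56682220-56682469 (plus strand) and chr1:211579162-211579411 (minus strand), each the 250 bases before the start. Capitals mark TGCGCNC or TGCACNC on either strand, the core of the metal response element.
MT2A: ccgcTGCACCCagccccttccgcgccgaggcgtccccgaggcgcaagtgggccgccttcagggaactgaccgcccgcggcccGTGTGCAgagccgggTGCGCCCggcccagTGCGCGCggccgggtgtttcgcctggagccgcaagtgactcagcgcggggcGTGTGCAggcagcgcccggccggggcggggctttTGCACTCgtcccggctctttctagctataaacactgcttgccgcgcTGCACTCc
MT1X: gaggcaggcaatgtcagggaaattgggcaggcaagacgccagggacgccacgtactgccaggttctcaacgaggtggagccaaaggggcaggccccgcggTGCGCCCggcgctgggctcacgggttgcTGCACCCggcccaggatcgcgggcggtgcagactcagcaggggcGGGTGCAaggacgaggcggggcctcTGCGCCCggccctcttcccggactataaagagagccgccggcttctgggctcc
SLC30A1: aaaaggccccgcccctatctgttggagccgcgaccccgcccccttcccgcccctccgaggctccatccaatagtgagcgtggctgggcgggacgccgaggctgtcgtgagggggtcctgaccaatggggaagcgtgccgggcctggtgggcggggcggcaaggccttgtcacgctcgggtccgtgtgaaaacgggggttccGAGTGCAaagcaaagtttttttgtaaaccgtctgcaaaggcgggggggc
MT2A had 7 matches, MT1X 4 and SLC30A1 1. A match was present in 24.8% of all 35116 promoters, and it is a match of letters only.

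The other turned responses were of varied kinds. The 6 largest returns from an increase were ACSL3P1, EPO, CCDC183, UNC93A, LCN15 and CKB, and the 6 largest from a decrease MT2A, ZNF461, CYP4F11, VPS35L, MT1E and C2orf16. LCN15, a lipocalin, had the largest earlier response of these, from 0.722 to 1.32 CPM in vehicle to 14.8, 16.8 and 15 CPM, and then stood at 7.79, 9.78 and 10.6 CPM. The fall of 0.72 (SE 0.12, adjusted p = 3.32e-06) left it above vehicle in all 3 libraries. CKB, the brain-type creatine kinase, came from 139, 144 and 149 CPM down to 87.8, 93.1 and 88.7 CPM (-0.68, SE 0.05, adjusted p = 7.06e-15), between vehicle (61.9 to 67.5 CPM) and its peak. ACSL3P1 is a pseudogene that lies within TF on the same strand, and its fall of 1.05 cannot be told apart from reads of that gene. CYP4F11, a fatty acid hydroxylase, was at 15, 15.1 and 15.2 CPM and rose to 25.5, 24.3 and 24.5 CPM (0.72, SE 0.07), above the 17.2 to 18.5 CPM of vehicle. IGF2, the fetal growth factor, fell by 0.43 (SE 0.07, adjusted p = 2.06e-06) after a rise of 0.34, while 4 of the 9 genes of the IGF axis rose, led by IGFBP3 at 2.36 and IGFBP6 at 0.64.

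**Figure D4:**
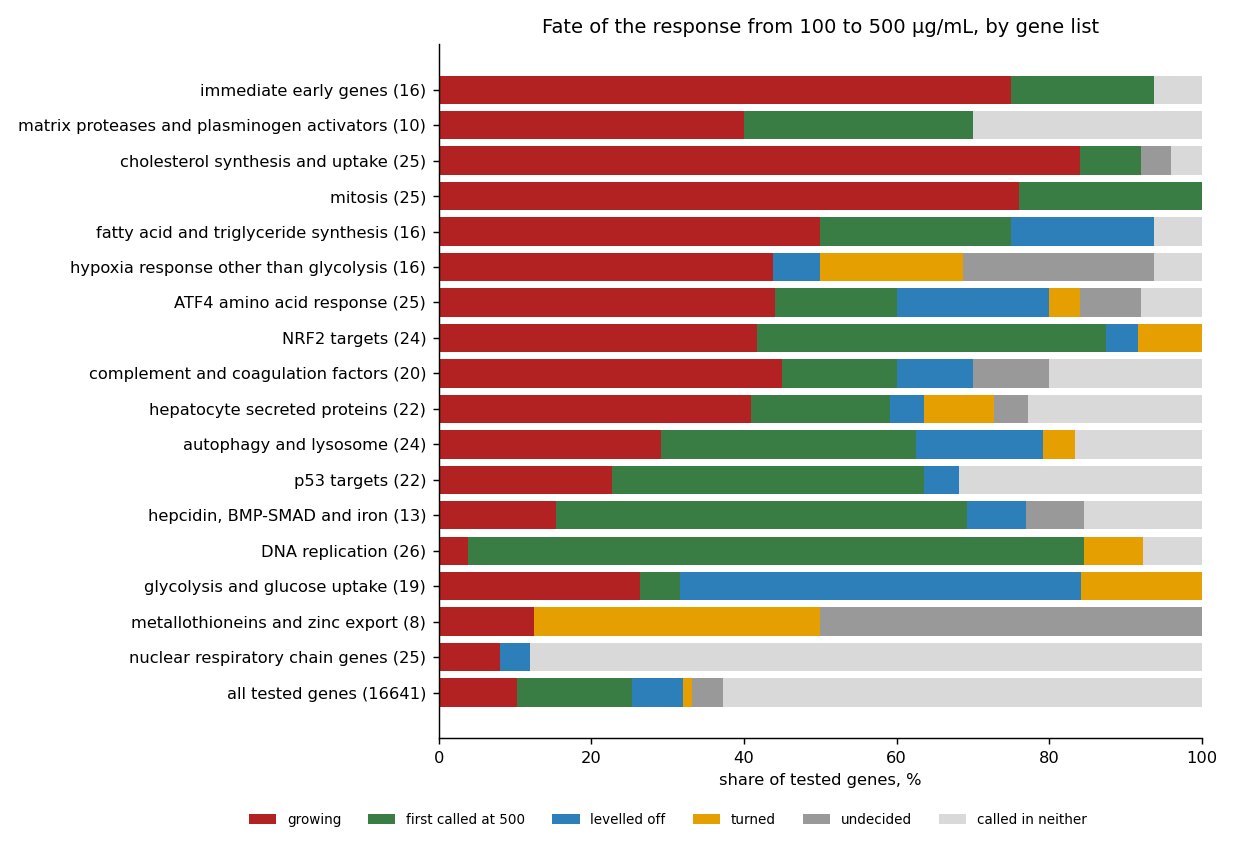
Bars show, for 17 gene lists and for all tested genes, the share of genes (percent) in each class, with the number of genes in parentheses. Growing genes fill most of the cholesterol, mitosis and immediate early bars, genes first called at 500 µg/mL most of the DNA replication bar, and levelled genes most of the glycolysis bar.

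Other lists had few calls or calls in both directions. Of 25 nuclear genes of the respiratory chain none rose and 2 fell (median -0.04), a smaller share than the 26.5% of all tested genes, and of the 13 transcripts of the mitochondrial genome none passed (median 0.08). Without the filter on low counts 6 of these 13 were called higher, and 5 with only the compared groups in the fit. Of 21 ribosome biogenesis genes 1 rose and 7 fell (median -0.04), of 13 Wnt feedback targets 3 rose and 4 fell, and of 10 PXR and CAR targets 4 rose and 2 fell. Of 18 insulin-repressed and FOXO targets 6 rose and 3 fell (median 0.14). Of 19 acute phase and NF-kappaB targets 5 rose and 5 fell (median -0.09), with the cytokine signalling inhibitor SOCS3 at 1.27, the chemokine CXCL8 at 1.21, the ubiquitin-like UBD at -0.56 and haptoglobin (HP) at -0.49.

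Dried ginger was given at the same doses and for the same time, in other libraries of the series. From 100 to 500 µg/mL of dried ginger 3940 genes were called (23.7%), and 2933 genes passed in the same direction under both extracts, which is 66.6% of the fresh ginger calls and 74.4% of the dried ginger calls. The 2 extracts' steps share no library. Only UBD and LAMTOR2, a lysosomal scaffold subunit, passed in opposite directions, LAMTOR2 at -0.25 under fresh and 0.26 under dried ginger. The difference between the 2 steps, tested directly, passed for 12 genes (0.0721%), with 5 differences above 0 (0.03%) and 7 below (0.0421%). UBD was among these 12 genes and LAMTOR2 was not. Replicate 1 of dried ginger at 500 µg/mL differed from its group more than the other 2 differed from each other, and without it and the other 2 libraries of the series that stood apart the count was 15. With only the compared groups in the fit it was 3.

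Negative regulators and targets of NF-kappaB made up 4 of the 7 genes with a lower step under fresh ginger. UBD, a ubiquitin-like modifier induced by inflammatory cytokines, fell under fresh ginger from 36.8, 35 and 34.9 CPM to 23.6, 25.5 and 23.1 CPM, and rose under dried ginger from 33.7, 33.7 and 33.3 CPM to 42.1, 41.2 and 40.4 CPM. The extracts did not overlap at either dose. They were close at 100 µg/mL, with fresh ginger slightly above, and far apart at 500 µg/mL, with fresh ginger below. The difference was -0.86 (SE 0.08, adjusted p = 2.27e-09). TNFAIP3, the A20 enzyme that ends NF-kappaB signalling, was level under fresh ginger, with 56, 51.9 and 50.6 CPM and then 49.4, 51 and 45.9 CPM, and rose under dried ginger from 50.1, 52 and 50.1 CPM to 70.8, 68.2 and 68.9 CPM. Its groups separated at the top dose alone (difference -0.57, SE 0.08, adjusted p = 2.41e-05). NFKBIA, the inhibitor that holds NF-kappaB in the cytoplasm, stayed at 110 to 113 and 109 to 117 CPM under fresh ginger and went from 106 to 110 up to 136 to 156 CPM under dried ginger (difference -0.40, adjusted p = 0.015). Without replicate 1 of dried ginger at 500 µg/mL its difference was -0.33 and past no test. CD83, a surface protein and a target of NF-kappaB, stood at 2.03 CPM (SD 0.0503, n = 3) and 1.52 CPM (SD 0.147, n = 3) under fresh ginger and rose by 0.93 under dried ginger (difference -1.35, adjusted p = 0.00482). Across the whole list of 19 acute phase and NF-kappaB targets, 12 rose and 3 fell under dried ginger.

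The other genes of this test were of varied function. CKB fell more under fresh ginger (difference -0.41), as did MTTP, which loads lipid onto apolipoprotein B (-0.23), and ESPL1, the separase of sister chromatids (-0.33). A larger rise under fresh ginger was measured for SEL1L3 (difference 1.07), ARRDC3, an arrestin-like adaptor (0.42), GCLM (0.34), CAPN2, a calpain protease (0.26), and the phosphate transporter SLC20A1 (0.20). SEL1L3 rose from 1.47, 1.78 and 1.34 CPM to 6.48, 6.42 and 7.37 CPM under fresh ginger and from 2.33, 1.49 and 2.36 CPM to 3.78, 4.4 and 4.67 CPM under dried ginger. Without replicate 1 of dried ginger at 500 µg/mL, SEL1L3, GCLM and ESPL1 did not pass, at 0.99, 0.26 and -0.31. UBD, TNFAIP3, CD83, CKB and ARRDC3 passed in each of the 12 fits that left out 1 library, and the other 7 genes failed in 5 to 11 of them.

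**Figure D5:**
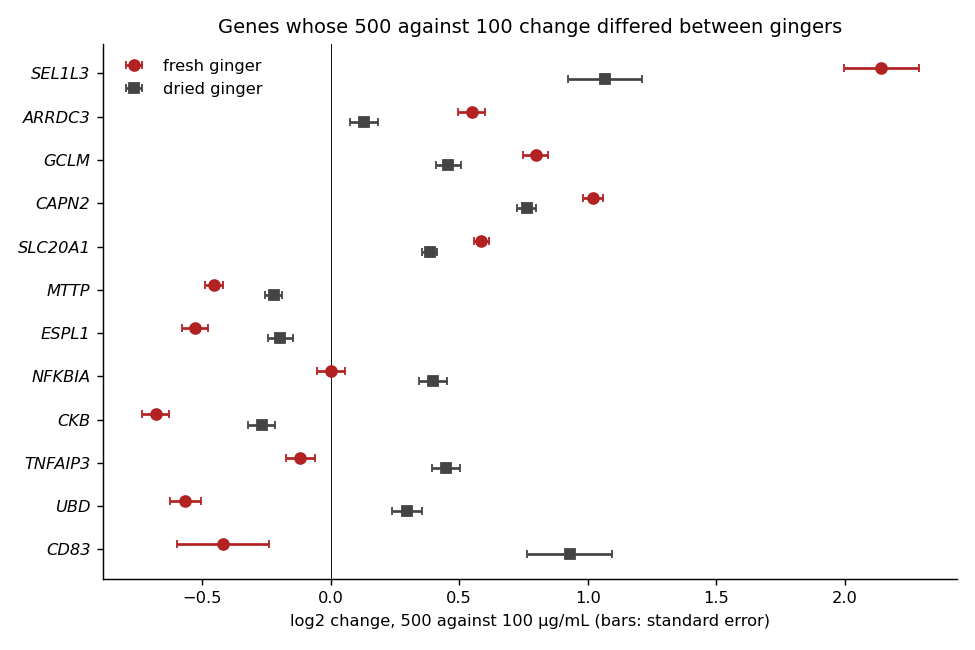
The log2 change from 100 to 500 µg/mL (horizontal) with its standard error (bars) is drawn for fresh and dried ginger for the 12 genes whose steps differed. UBD lies on opposite sides of 0, NFKBIA and TNFAIP3 passed the test under dried ginger and not under fresh, and SEL1L3 has the widest gap among genes that rise under both.

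The same pair of doses differed in 600 genes for the pinelliae extract (3.61%), in 8074 for scutellariae (48.5%) and in 173 for zizyphi (1.04%). These counts set the scale of the 4404 genes of fresh ginger within the series, and the counts for pinelliae and zizyphi moved by more than 1.5 times with the processing.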

How the data were processed

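RNA was sequenced as 100-base read pairs from a directional mRNA library kit, per the labels' protocols. The authors deposited expected counts per gene in 1 table, made with STAR 2.7.3a and RSEM 1.3.3 on GRCh38 after FastQC 0.11.9 and Trim Galore 0.6.5, per the submitters' processing notes. For the annotation release and the strand setting: not given in the sources used here. Expected counts split reads shared by similar genes by estimate. Of the nonzero values 24.44% were not whole, and all were rounded. The table's other 208 columns were not used.

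Genes were filtered with filterByExpr, scaled by TMM and fitted with edgeR 4.0.16 (R 4.3.3) over 59 libraries and 20 group means, with Benjamini-Hochberg adjustment over 16641 genes. CPM and the promoter searches were computed here. Standard errors are the log2 change over the square root of F, and two-sided tests were used throughout. Samples were grouped by their labels. The fit was tested on simulated data. Alternatives used DESeq2 1.42.0, other filters, scalings and thresholds, a replicate block, and fits without single libraries.

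Genes were named by rule: the 15 largest rises and falls with non-overlapping libraries and at least 2 CPM, the 6 largest of each class and direction, up to 4 called members of each list plus members whose role is explained, and the 5 largest differences between gingers each way. LAMTOR2, TP53BP1 and SEPSECS were named after their values were seen, and a few genes are not reported here. The members and the 34 gene lists were chosen with earlier results of these data known. Of the tested IDs 1784 had no symbol, 115 of them called at the step.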

Additional observations from a re-analysis of the deposited data

Results flagged for a closer look

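The change from 100 to 500 µg/mL differed between fresh and dried ginger by a test of the difference itself in 12 genes. The log2 difference, fresh minus dried, was -1.35 for CD83, -0.86 for UBD, -0.57 for TNFAIP3, -0.41 for CKB, -0.40 for NFKBIA, -0.33 for ESPL1 and -0.23 for MTTP. It was 0.20 for SLC20A1, 0.26 for CAPN2, 0.34 for GCLM, 0.42 for ARRDC3 and 1.07 for SEL1L3.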

How the results depend on the processing

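No named gene with a called change reversed direction under any alternative run. The count of genes called from 100 to 500 µg/mL, 4404, was 1013 (612 higher, 401 lower) when tested against a change of 1.2-fold, and 3747 to 3873 without 1 library. At an adjusted p under 0.01, pinelliae had 236 genes, zizyphi 70, the fresh minus dried difference 5, the difference between successive steps 639 and the turned class 103. Without the filter on low counts pinelliae had 931 and the fresh minus dried difference 129, which was 19 with DESeq2 and 3 with only the groups compared, where pinelliae had 29. Without the 3 libraries of the series that stand apart, pinelliae had 398 and zizyphi 331. With a level band of 0.15 the levelled class held 483 genes and the undecided 1317, and with 0.40 the undecided held 395. Without 1 library the ranges were 184 to 838 for pinelliae, 68 to 104 for zizyphi, 5 to 13 for the fresh minus dried difference and 681 to 1222 for the difference between steps, and 1359 to 1616 for growing, 816 to 1095 for levelled, 149 to 181 for turned and 2024 to 2737 for genes first called at 500 µg/mL. The libraries of pinelliae, scutellariae and zizyphi were left out in turn after the data had been seen. The cause of these shifts was not tested.

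To check for pairing, each library's log2 levels were taken as differences from its group mean, over genes above a minimum level. The correlations of these differences between same-numbered libraries at 500 and 100 µg/mL were 0.221, 0.222 and 0.094. Within a group the differences cancel out, so the correlations depend on each other. Each library at 500 µg/mL correlated most with its same-numbered library, replicate 3 by little (0.094 against 0.084 with replicate 1). Replicate 3 at 100 µg/mL correlated more with replicate 2 at 500 µg/mL (0.145). Pairing by replicate number is possible but not settled by these values, and the main fit did not use it. With a replicate block 4458 genes were called, and the levelled class held 663 and the undecided 389. The block left 2495 genes called at 100 µg/mL against vehicle, where the main fit had 3701. The growing class then held 1286, and 3015 genes were first called at 500 µg/mL. List counts above 5 moved by more than 1.5 times in 2 cases at any alternative, endoplasmic reticulum genes that fell (7, and 4 without replicate 2 at 100 µg/mL or at an adjusted p under 0.01) and heat shock genes that fell (6, and 3 without the filter or at an adjusted p under 0.01). Of the counts of 5 or fewer, 22 moved as much in at least 1 alternative.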
